A study of Drosophila melanogaster with 29 samples.

Results

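The 6 genes of the prefoldin complex (Pfdn1, Pfdn2, mgr, Pfdn4, Pfdn5 and Pfdn6) were followed across 29 Affymetrix arrays of Drosophila S2 cells. Each gene was taken from the probe set that names it alone in the probe annotation, with its symbol updated by gene number. Each had 1 such probe set, and the 6 stood among 11677 genes tested. The set was chosen by the log2 fold change of Pfdn4 after dRING depletion, one of the largest drops there, so all values of that depletion against untreated cells are given as a description with no test. The members and related gene lists were chosen with earlier results of these data known.

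Prefoldin is a cytosolic co-chaperone that catches newly made actin and tubulin chains and hands them to the ring-shaped chaperonin CCT, inside which they fold. It is assembled from alpha-class subunits, encoded by mgr (merry-go-round, the counterpart of human VBP1) and Pfdn5, and beta-class subunits, encoded by Pfdn1, Pfdn2, Pfdn4 and Pfdn6, whose coiled coils form the tentacles that hold the client chain. In flies, mgr is known for its part in spindle assembly through tubulin.

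S2 is a line with features of embryonic blood cells (hemocytes). The groups were 14 arrays of untreated cells, called Mock, and 3 arrays for each of 5 depletions, in which cells were exposed for 4 days to double-stranded RNA targeting PC, PH, PSC, dRING or dKDM2. PC, PH, PSC and dRING (the product of Sce) belong to the Polycomb repressive complex PRC1, and dKDM2 demethylates histones. Total RNA (7 micrograms per labelling) was hybridised. The Mock cells received no double-stranded RNA, so exposure to it and the depletion cannot be told apart. Arrays are labelled as biological replicates, but no cultures are named, so the p-values rest on a spread that may be partly technical. All 5 depletions are set against the same Mock arrays and are therefore not independent of each other.

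Several features of the arrays touch the results. Sce stood at 8.04 in Mock and at 3.63 after dRING depletion, but also at 5.22 for dKDM2 and 5.38 for PH. Pc stood at 6.60 in Mock and 4.39 after PC depletion. Psc went against its label, at 6.77 in Mock and 9.13 on the arrays labelled PSC, so every direction given for those arrays rests on the label. It was also above Mock for dRING (9.31), PC (9.54), dKDM2 (10.24) and PH (11.23), and the arrays labelled PSC had the lowest mean of the 5. Genes for dKDM2 and PH were not analysed here, so those labels were not checked by a target. Poly-A spikes, added to RNA before labelling, averaged 3.05 to 7.73 on the Mock arrays, 7.76 to 10.04 on the dKDM2 arrays and 9.94 to 10.52 on the PH arrays. On the dRING, PC and PSC arrays they averaged 4.76, 4.86 and 4.47. Hybridisation control probe sets averaged 10.52 in Mock, 12.18 for dKDM2, 12.68 for PH, 10.22 for dRING, 10.24 for PC and 10.14 for PSC. The part of these differences in the results was not tested. Of 9 hemocyte (plasmatocyte) markers, 6 averaged above 4 in Mock, among them Pxn, srp and eater, while peb lay at the floor of 2.27. Of 14 tested markers of other cell types, PPO3, elav and bam averaged above 4, while PPO1, Lsp2 and vas lay at the floor. The summed signal of these 14, on the log2 scale, ran from 7.55 to 9.81 in Mock, 9.22 to 9.39 on the dKDM2 arrays, 9.48 to 10.04 on the PH arrays and 7.11 to 8.58 on the dRING, PC and PSC arrays.

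Single markers moved with the depletions too. The neuronal gene elav rose 5.15-fold for dKDM2 and 7.14-fold for PH, and the germ line gene bam fell 4.60-fold for dKDM2, 8.22-fold for PH and 7.31-fold for PSC. These were all the calls among the 14 markers of other cell types. Among the 9 plasmatocyte markers, crq rose for dKDM2 (2.49-fold) and PH (3.77-fold), and peb rose for PH (5.40-fold) and PC (1.88-fold). The phagocytosis receptor gene eater fell 8.77-fold for PH and 24.1-fold for PSC, where Sr-CI (16.5-fold) and He (10.5-fold) fell as well. Hml fell 1.30-fold for PH and rose for PC (3.00-fold) and PSC (1.51-fold), and NimC1 rose 1.20-fold for PC. Both were dim in Mock, Hml at 3.29 and NimC1 at 2.40, and NimC1 reached only 2.67 for PC. For dRING, not tested, the 9 had log2 fold changes from -1.37 to 0.80. The part of these shifts in the prefoldin results was not tested.

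All levels below are quantile-normalised log2 signals, and each level of a gene is compared only with the same gene on other arrays, because probe sets differ in brightness. SD is the spread over arrays, SE is the standard error of the limma log2 fold change, and a call is a limma adjusted p under 0.05 with Benjamini-Hochberg adjustment over all genes tested. Rose and fell are written of called genes. In such bulk samples, fewer cells of a type and less RNA per cell cannot be told apart.

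After dKDM2 and PH depletion 4 of the 6 genes fell, namely Pfdn1, Pfdn4, Pfdn5 and Pfdn6, against 14.7% of all genes called lower for dKDM2 and 15.4% for PH. These were the depletions with the high poly-A spikes. On the arrays labelled PSC 3 of 6 fell, Pfdn1, Pfdn4 and Pfdn6, against 6.51% of all genes. This count depended on the fit. It was 0 against Mock 1 to 3 alone, 2 on those arrays with the replicate number as a block, and 1 with only PSC and Mock in the fit. After PC depletion 0 of 6 were called by limma, against 1.22% of all genes called lower, although 2 (Pfdn4 and Pfdn6) had an unadjusted p under 0.05. No subunit was called higher in these 4 comparisons, against 18.4% of all genes for dKDM2, 19.6% for PH, 9.99% for PSC and 3.32% for PC. Every array lay below every Mock array for 4 of 6 members with dKDM2 (9.96% of all genes) and 4 with PH (12.1%), and for Pfdn4 alone with PSC (4.18%), PC (1.53%) and dRING (1.46%). The median log2 fold change of the 6 was -1.82 for dKDM2, -1.18 for PH, -0.77 for the PSC arrays, -0.59 for PC and -0.55 for dRING, where the median of all genes lay within 0.01 of 0. All genes here include many dim ones, in which a fall is hard to see, and 5550 had a mean log2 signal above 4. Among these, the 519 with a genomic span in the range of the members had medians of -1.44, -1.19, -0.86, -0.66 and -0.69 in the same order.

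How large the dKDM2 and PH changes were depended on how the arrays were scaled. For dKDM2 the log2 fold changes of the 4 called members ran from -1.70 to -2.12 after quantile normalisation, from -2.28 to -2.78 on the deposited values and from -2.37 to -2.87 with median centring. For PH they ran from -1.13 to -2.23, from -1.74 to -3.19 and from -1.88 to -3.33. Folds given below for these depletions are those after quantile normalisation, and on the linear scale the deposited values gave Pfdn4, for one, a fold more than 1.5 times as large in both.

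**Figure D1:**
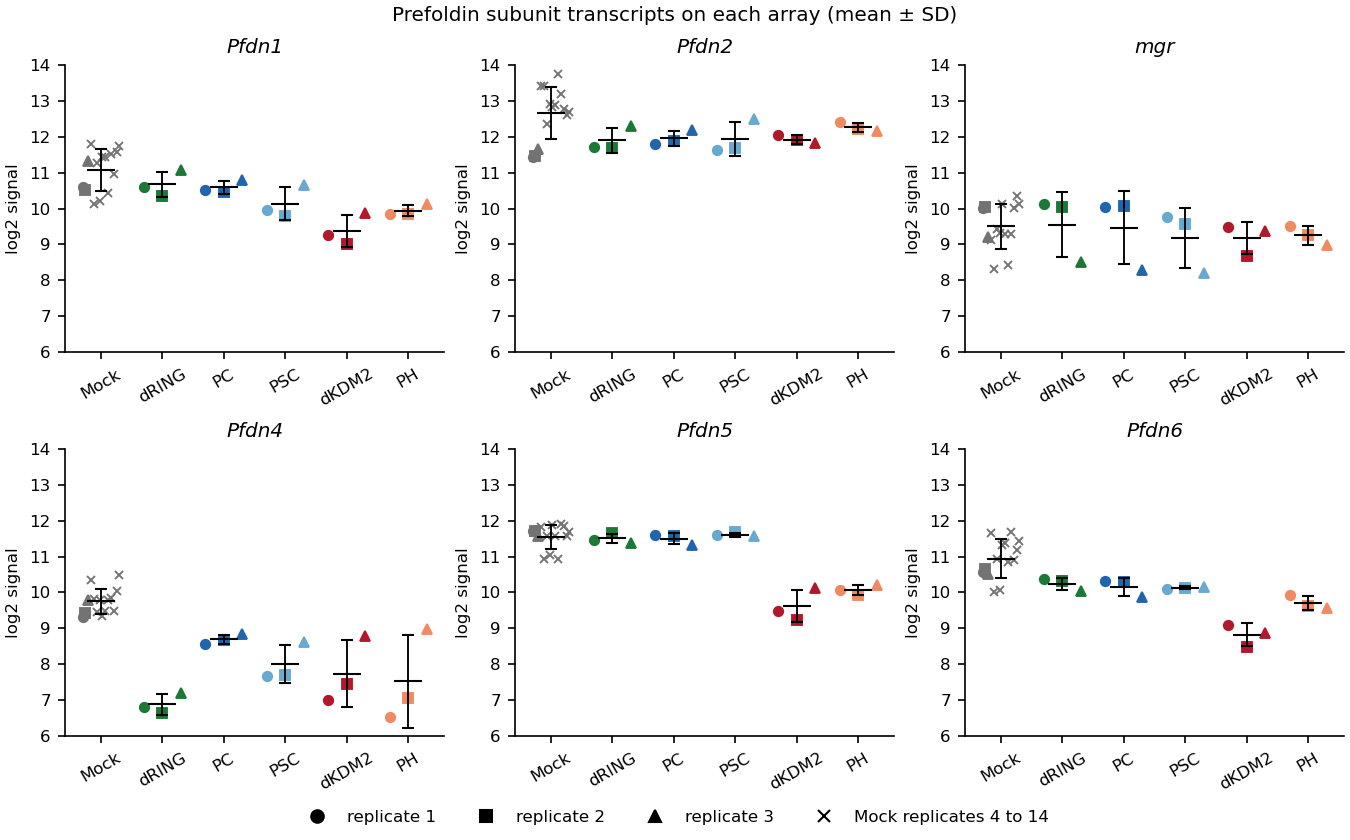
Quantile-normalised log2 signal of each prefoldin gene (vertical axis, 1 panel per gene) on every array, by group. Symbols mark the replicate number, and the black bar and whiskers are the mean and SD. Pfdn4 lies below all Mock arrays in all 5 depletions, Pfdn5 only on the dKDM2 and PH arrays, and mgr overlaps Mock in each.

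Pfdn4, a beta-class subunit, was the one member that lay below all Mock arrays in all 5 depletions. Its signal in the 14 Mock arrays ran from 9.33 to 10.48 with a median of 9.79 (mean 9.75 ± 0.36 SD). After dRING depletion it stood at 6.80, 6.63 and 7.20 (6.88 ± 0.29, n = 3). All 3 arrays were well under the lowest Mock array, and no other member lay wholly below Mock in this depletion, against 1.46% of all genes that did. The difference, which chose the gene, was a log2 fold change of -2.87 (SE 0.36, 7.32-fold), and 5 of the 11677 genes, or 0.0428%, were lower still.

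The other depletions share the Mock arrays with that choice, and earlier results of these data were known. Their tests of Pfdn4 are therefore not independent of the choice. On the PH arrays Pfdn4 stood at 6.53, 7.04 and 8.97 and fell 4.70-fold, a log2 fold change of -2.23 (SE 0.36, limma adjusted p = 2.49e-05). On the dKDM2 arrays it stood at 6.98, 7.44 and 8.78 and fell 4.03-fold, a log2 fold change of -2.01 (SE 0.36, limma adjusted p = 9.09e-05). In both groups replicate 3 was the high array, yet it too lay under every Mock array. On the arrays labelled PSC it stood at 7.67, 7.69 and 8.61 and fell 3.37-fold, a log2 fold change of -1.75 (SE 0.36, limma adjusted p = 0.000959). This call ended when Mock 1 to 3 alone served as the controls (limma adjusted p = 0.126). After PC depletion it stood at 8.57, 8.67 and 8.83, all under the lowest Mock array, but the difference of -1.06 (SE 0.36, 2.08-fold) was not called (limma adjusted p = 0.0938). With PC and Mock alone in the fit it was called (0.0127).

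Same-numbered arrays of Mock, dRING, PC and PSC deviated together, so Pfdn4 was also read by number. The difference from the same-numbered Mock array was -2.52, -2.80 and -2.60 for dRING, -0.75, -0.76 and -0.97 for PC, and -1.65, -1.73 and -1.19 for the arrays labelled PSC. The 3 differences were thus of like size within each depletion, and largest for dRING, whose value chose the gene. Replicates 1 and 2 were nearly alike in each of these groups (r = 0.994 to 0.997 over genes), so their differences nearly repeat each other. Differently numbered arrays were not compared, so pairing by number was not shown. With the number as a block, a fit that keeps only Mock 1 to 3 of the controls, Pfdn4 was called lower on the arrays labelled PSC (limma adjusted p = 0.0159, against 0.126 on the same arrays without the block) and was not called for PC (0.385, against 0.799).

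The levels of Pfdn4 were ordered dRING, PH, dKDM2, PSC, PC and Mock from lowest (6.88) to highest (9.75) after quantile normalisation. The low end of this order turned with the scaling. On the deposited values the log2 fold change was -3.19 for PH, -2.84 for dRING and -2.78 for dKDM2, and with median centring it was -3.33, -2.84 and -2.87. Among the 4 groups that could be tested, no difference between neighbours or others was called. PH and dKDM2 differed by 0.22 (95% interval of dKDM2 minus PH -0.72 to 1.16, limma adjusted p = 1.00), and PC lay 1.17 above PH (0.23 to 2.12, limma adjusted p = 0.0861).

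Pfdn5, an alpha-class subunit whose human counterpart is known as a MYC-binding protein, separated the depletions most clearly. It ran from 10.92 to 11.91 in Mock with a median of 11.64 (11.55 ± 0.34, n = 14). On the dKDM2 arrays it stood at 9.49, 9.24 and 10.11 and fell 3.84-fold, a log2 fold change of -1.94 (SE 0.19, limma adjusted p = 2.90e-08). On the PH arrays it stood at 10.08, 9.92 and 10.20 and fell 2.80-fold, a log2 fold change of -1.49 (SE 0.19, limma adjusted p = 1.19e-06). None of these 6 arrays reached the lowest Mock array.

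The other 3 depletions left Pfdn5 within the Mock range. It stood at 11.47, 11.66 and 11.39 after dRING, at 11.61, 11.57 and 11.32 after PC and at 11.59, 11.68 and 11.57 on the arrays labelled PSC. The log2 fold change was -0.05 for dRING, -0.05 for PC (95% interval -0.44 to 0.34, limma adjusted p = 1.00) and 0.06 for PSC (-0.33 to 0.45, limma adjusted p = 0.978). The sign of the PSC value turned with the scaling, to -0.14 on the deposited values and -0.15 with median centring.

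Pfdn5 also differed between depletions. It was lower on the dKDM2 than on the PC arrays (log2 difference -1.89, SE 0.24, limma adjusted p = 1.35e-05) and lower on the dKDM2 than on the PSC arrays (4.00-fold, SE 0.24 on the log2 scale, 2.31e-06). It was higher on the PC than on the PH arrays (1.43, SE 0.24, limma adjusted p = 0.000238) and lower on the PH than on the PSC arrays (-1.55, SE 0.24, 6.59e-05). In each of these 4 pairs the groups of arrays did not overlap, as was so in the same direction for 16.7%, 14.2%, 17.8% and 17% of all genes, in this order. The dKDM2 and PH arrays, the lowest neighbours in its order, differed by -0.45 (95% interval -0.95 to 0.05) and were not called apart (limma adjusted p = 0.384). Each of the 4 pairs called set dKDM2 or PH against PC or PSC. Poly-A spikes averaged 9.02 for dKDM2 and 10.26 for PH, against 4.86 for PC and 4.47 for PSC. The part of that array difference was not tested.

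Pfdn6, a beta-class subunit, ran from 10.01 to 11.68 in Mock with a median of 10.91 (10.94 ± 0.54, n = 14). It stood at 9.10, 8.47 and 8.88 on the dKDM2 arrays, where it fell 4.36-fold, a log2 fold change of -2.12 (SE 0.27, limma adjusted p = 1.22e-06). It stood at 9.93, 9.62 and 9.57 on the PH arrays, where it fell 2.35-fold, a log2 fold change of -1.23 (SE 0.27, limma adjusted p = 0.000819). Both groups lay wholly below Mock.

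On the arrays labelled PSC Pfdn6 stood at 10.09, 10.14 and 10.16, close together but above the lowest Mock array. It fell there by 0.81 (SE 0.27, 1.76-fold, limma adjusted p = 0.0399), close to the threshold. The call ended when Mock 1 to 3 alone served as the controls, both without the replicate number as a block (limma adjusted p = 0.121) and with it (0.0684), and without any one of Mock 8, 9, 13 or 14 or of the 3 PSC arrays (up to 0.133). After PC depletion it stood at 10.31, 10.30 and 9.86, a difference of -0.78 (SE 0.27) that was not called (limma adjusted p = 0.0996), but it was called without Mock 5 (0.0448). After dRING depletion it stood at 10.36, 10.32 and 10.04, with a log2 fold change of -0.70.

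Pfdn1, also a beta-class subunit, ran from 10.13 to 11.80 in Mock with a median of 11.30 (11.07 ± 0.58, n = 14). It stood at 9.25, 9.00 and 9.87 on the dKDM2 arrays and fell 3.24-fold, a log2 fold change of -1.70 (SE 0.31, limma adjusted p = 0.000123). It stood at 9.86, 9.86 and 10.11 on the PH arrays and fell 2.19-fold, a log2 fold change of -1.13 (SE 0.31, limma adjusted p = 0.00596). These 6 arrays lay below every Mock array, the highest of them by a small margin.

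On the arrays labelled PSC Pfdn1 stood at 9.96, 9.78 and 10.66 and fell 1.91-fold, a log2 fold change of -0.94 (SE 0.31, limma adjusted p = 0.0383). Replicate 3 lay within the Mock range. The call ended without any one of Mock 8, 9 or 11 or PSC 1 or 2 (up to 0.239), and when Mock 1 to 3 alone served as the controls (0.205). On these arrays the replicate number as a block gave an adjusted p of 0.00242, and the same-numbered differences were -0.65, -0.74 and -0.67. It stood at 10.50, 10.48 and 10.81 after PC depletion (log2 fold change -0.48, limma adjusted p = 0.510) and at 10.59, 10.36 and 11.06 after dRING depletion (-0.40), within the Mock range in both.

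**Figure D2:**
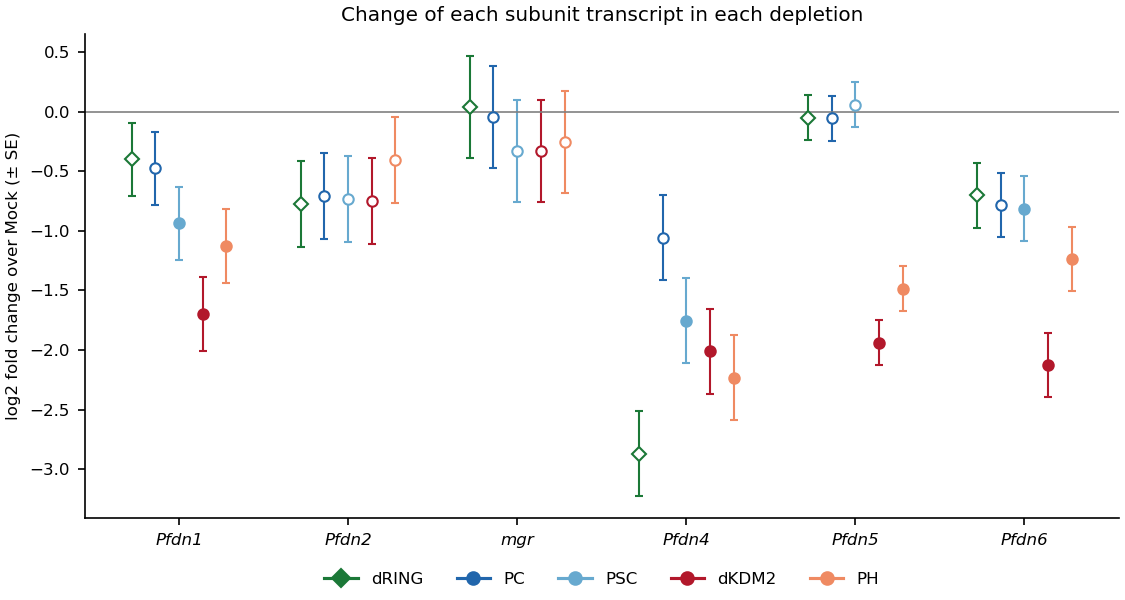
Log2 fold change over Mock (vertical axis) of each prefoldin gene in each depletion, with whiskers of 1 SE. Filled circles were called at a limma adjusted p under 0.05, open circles were not, and diamonds mark dRING, which was not tested because its values chose Pfdn4. Pfdn4 has values from -1.06 to -2.87, and Pfdn5 is near 0 for dRING, PC and PSC and at -1.94 and -1.49 for dKDM2 and PH.

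Between depletions, Pfdn1 and Pfdn6 were lowest on the dKDM2 arrays. Both were lower there than on the PC arrays, Pfdn1 by a log2 difference of -1.22 (SE 0.40, limma adjusted p = 0.0421) and Pfdn6 by -1.34 (SE 0.35, 0.0108). Pfdn6 was also lower on the dKDM2 than on the PSC arrays (-1.31, SE 0.35, limma adjusted p = 0.00946). With Pfdn5 this made 3 of 6 members lower on dKDM2 than PC arrays, against 6.79% of all genes, and 2 of 6 lower on dKDM2 than PSC arrays, against 8.44%. There was 1 of 6 higher on PC than PH arrays, against 8.31%, and 1 of 6 lower on PH than PSC arrays, against 9.14%. Limma called 0 of 6 between dKDM2 and PH, against 1.22% lower and 1.23% higher among all genes, and 0 of 6 between PC and PSC, against 2.42% lower and 1.51% higher. The unadjusted p was under 0.05 for 1 member (Pfdn6) in the former pair and for 0 in the latter. These were 7 calls among 36 comparisons. The number was 14 with the replicate number as a block, in a fit that also leaves out Mock 4 to 14, and 4 without dKDM2 replicate 2. All 7 calls of the main fit set dKDM2 or PH arrays, which had the high poly-A spikes, against PC or PSC arrays. The part of that array difference was not tested.

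Pfdn2, a beta-class subunit, was not called in any of the 4 tested depletions, and its direction depended on the controls. Its Mock signal ran from 11.44 to 13.75 with a median of 12.80 (12.67 ± 0.72, n = 14), the widest SD of the 6 in Mock. Mock 1 to 3 stood at 11.44, 11.46 and 11.67, whereas Mock 4 to 14 ran from 12.35 to 13.75 (12.99 ± 0.42, n = 11). Those ranges did not overlap.

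All depletion arrays of Pfdn2 lay between 11.63 and 12.50. They stood at 12.05, 11.91 and 11.82 for dKDM2, 12.42, 12.21 and 12.17 for PH, and 11.81, 11.88 and 12.21 for PC. They stood at 11.63, 11.69 and 12.50 for PSC and 11.71, 11.69 and 12.30 for dRING. Against all 14 Mock arrays the log2 fold change was -0.75 for dKDM2 (limma adjusted p = 0.124), -0.41 for PH (0.477), -0.73 for PSC (0.198), -0.70 for PC (0.325) and -0.77 for dRING. Against Mock 1 to 3 it was 0.40 for dKDM2 (limma adjusted p = 0.237), 0.74 for PH (0.0226), 0.42 for PSC (0.358), 0.44 for PC (0.621) and 0.38 for dRING. Against Mock 4 to 14 it was -1.06 for dKDM2 (limma adjusted p = 0.00106), -0.72 for PH (0.0200), -1.04 for PSC (0.00241) and -1.02 for PC (0.00726). No direction is therefore given for Pfdn2.

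The alpha-class gene mgr overlapped Mock in every depletion. It ran from 8.32 to 10.35 in Mock with a median of 9.38 (9.51 ± 0.63, n = 14). It stood at 9.48, 8.68 and 9.39 for dKDM2, 9.51, 9.25 and 8.99 for PH, and 10.05, 10.06 and 8.30 for PC. It stood at 9.75, 9.56 and 8.21 for PSC and 10.12, 10.03 and 8.50 for dRING. Replicate 3 was the low array in all depletions but dKDM2, by more than 1 log2 unit for dRING, PC and PSC.

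The log2 fold change of mgr lay between -0.33 for dKDM2 and PSC and 0.04 for dRING, with an SE of 0.43. The 95% intervals were wide, -1.21 to 0.56 for dKDM2, -1.14 to 0.63 for PH, -0.92 to 0.84 for PC and -1.22 to 0.55 for PSC (limma adjusted p = 0.713, 0.779, 1.00 and 0.844). A fall of the size seen for Pfdn1 after PH depletion lies within the intervals for dKDM2, PH and PSC. Without replicate 3 of PC the value for that depletion was 0.55, and without replicate 3 of PSC it was 0.15 there.

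The prefoldin genes are short, and short genes as a class stood lower in these arrays. Their genomic spans, introns included, run from 668 bases for Pfdn4 to 1097 for Pfdn2 in the Release 6 plus ISO1 MT annotation. They lie apart in the genome, Pfdn1 on chromosome arm 2L, Pfdn2, Pfdn4 and Pfdn6 on 3L, and mgr and Pfdn5 on 3R. The 519 genes with a span in the range of the members and a mean log2 signal above 4 had a median log2 fold change of -1.44 for dKDM2 (quartiles -2.28 and -0.68), -1.19 for PH (-2.12 and -0.39), -0.86 for PSC (-1.31 and -0.49), -0.66 for PC (-0.96 and -0.31) and -0.69 for dRING (-0.96 and -0.34).

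Set beside these genes, after quantile normalisation, the members fell into place unequally. For dKDM2, the 4 that fell (-1.70 to -2.12) lay within the quartiles of genes of their span, as did Pfdn2 at -0.75. For PH, Pfdn4 at -2.23 lay just below the lower quartile and Pfdn1, Pfdn2, Pfdn5 and Pfdn6 within the quartiles. Pfdn4 lay below the lower quartile for PSC and PC too. It did so by the most for dRING, where its large drop chose the gene, so its place there is no separate result. Pfdn5 at -0.05 for dRING, -0.05 for PC and 0.06 for PSC lay above the upper quartile of genes of like span, and mgr lay above it in all 5 depletions. The part of gene length in the results was not tested.

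**Figure D3:**
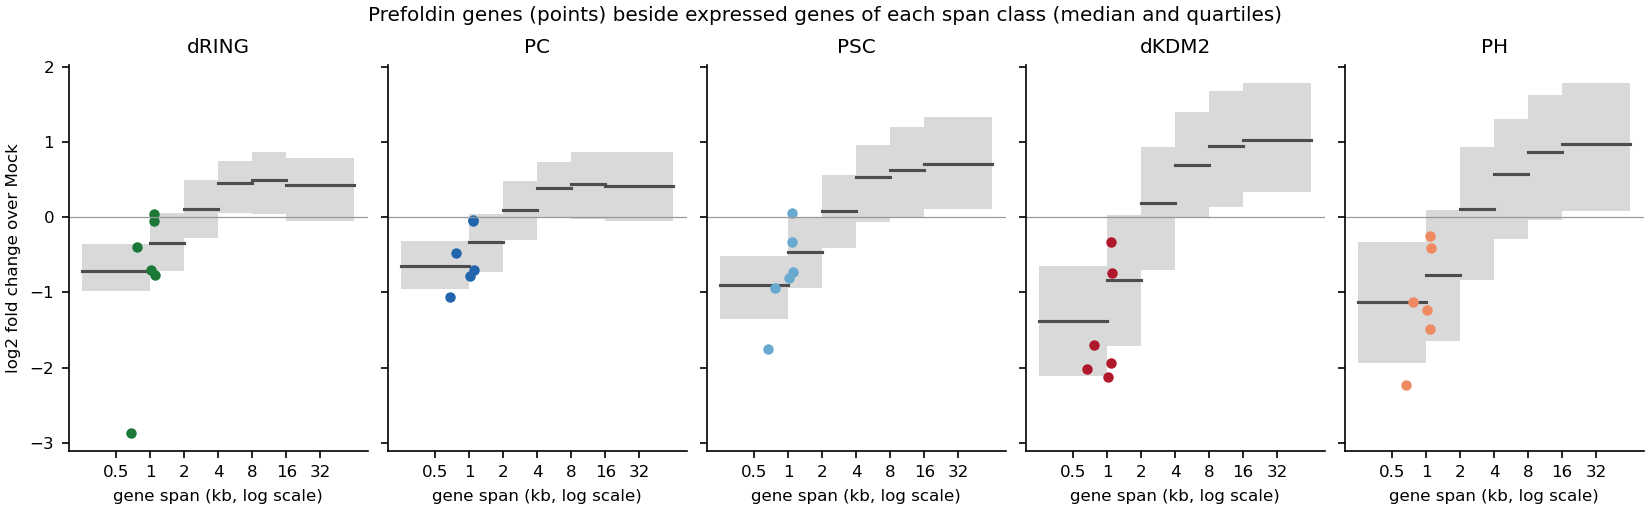
Log2 fold change over Mock (vertical axis) against genomic span in kilobases (log axis), 1 panel per depletion. Points are the 6 prefoldin genes, and grey boxes with a dark line are the quartiles and median of genes with a mean log2 signal above 4 in each span class, the outer classes being open-ended. The medians are below 0 for genes under 2 kb and above 0 for longer ones in each panel, and Pfdn4 lies below the box in the dRING, PC, PSC and PH panels. The dRING value of Pfdn4 chose the gene.

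Across the Mock arrays alone, where no depletion enters, Pfdn1 and Pfdn6 went together. Their Pearson correlation over the 14 arrays was 0.870 and the Spearman correlation 0.867 (permutation p = 0.00012 and 0.00016, adjusted over 15 pairs 0.0018 and 0.0024). Without the 2 arrays farthest from the Pfdn1 median, r was 0.758, and within Mock 4 to 14 it was 0.930. Mock 5, 7 and 10 were the low arrays of Pfdn1 (10.13, 10.20 and 10.44) and of Pfdn5 (10.92, 11.04 and 10.93). Only the 15 pairs of members were correlated, so no share over other gene pairs stands beside these values. The Mock arrays themselves differed, with r between arrays as low as 0.758 over genes. Whether such correlations are particular to prefoldin genes was not tested.

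Pearson also called Pfdn1 with Pfdn5 (r = 0.716, permutation adjusted p = 0.0455), Pfdn5 with Pfdn6 (0.692, 0.0455) and mgr with Pfdn5 (0.689, 0.0481), but Spearman called none of these 3 over the 14 arrays (permutation adjusted p = 0.212, 0.173 and 0.397). Within Mock 4 to 14 Spearman called 3 pairs, Pfdn1 with Pfdn6, Pfdn5 with Pfdn6 (rho = 0.773, permutation adjusted p = 0.0364) and, inversely, Pfdn2 with mgr (rho = -0.856, 0.0103). For Pfdn1 with Pfdn5, r dropped to 0.466 without the 2 farthest arrays and so rested on them. Pfdn4 was not called with any other subunit, with r from -0.12 for mgr to 0.42 for Pfdn1 and permutation adjusted p from 0.282 to 0.869. Mock 1 and 2 (r = 0.997 over genes) and Mock 13 and 14 (0.991) were nearly alike, and with each pair averaged 1 of 15 pairs, Pfdn1 with Pfdn6, was called by either measure.

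Over all 29 arrays, the 5 genes that followed Pfdn4 most closely by Pearson correlation, among 5549 others with a mean log2 signal above 4, were not prefoldin genes. They were Rpe (r = 0.856), which encodes ribulose-phosphate 3-epimerase of the pentose phosphate pathway, CG14966 (0.848), CG18731 (0.842), Oscillin (0.840), a glucosamine-6-phosphate deaminase, and CG11858 (0.832). All 29 arrays share the group differences, so these values are a description. The other subunits ranked 483 (Pfdn1, r = 0.653), 661 (Pfdn6, 0.618), 1069 (Pfdn2, 0.525), 1313 (Pfdn5, 0.462) and 2721 (mgr, -0.0045). After dRING depletion, where Pfdn4 stood at -2.87, these 5 genes had log2 fold changes from -0.80 for CG11858 to -1.41 for CG18731.

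The chaperonin CCT, which receives clients from prefoldin, was read from all 8 of its subunit genes. After dKDM2 depletion 5 fell and 2 rose (median log2 fold change -0.85), against 14.7% of all genes called lower and 18.4% higher. The log2 fold change was -1.24 for CCT5 (2.36-fold, limma adjusted p = 1.77e-08), -0.93 for CCT7 (1.90-fold, 0.000226) and -0.87 for CCT4 (1.83-fold, 0.0463). CCT2 rose by 0.80 (1.74-fold, limma adjusted p = 0.00926) and CCT3 by 0.47 (1.39-fold, 0.0356). After PH depletion 5 fell and 2 rose (median -0.98), against 15.4% of all genes called lower and 19.6% higher. Here the log2 fold change was -1.54 for CCT5 (2.90-fold, limma adjusted p = 5.33e-10), -1.20 for CCT8 (limma adjusted p = 0.000974) and -1.17 for CCT1 (2.25-fold, 0.000333). CCT2 rose by 0.84 (1.79-fold, limma adjusted p = 0.00665) and CCT3 by 0.51 (1.42-fold, 0.0240).

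The rises of CCT2 and CCT3 depended on the scaling. On the deposited values 0 of the 8 were called higher for dKDM2 and 1 for PH, and median centring left 0 in both. The calls of CCT2 and CCT3 for dKDM2 ended without dKDM2 replicate 1 or 2 (adjusted p up to 0.116 and 0.250). For PH, the call of CCT2 ended without PH replicate 2 (0.0550) and that of CCT3 without any 1 PH array (up to 0.103). The call of CCT4 for dKDM2 ended without any 1 dKDM2 array or any 1 of 6 Mock arrays (4, 6, 7, 10, 11 and 12, up to 0.125). Against Mock 1 to 3 alone CCT4 was not called for dKDM2 (limma adjusted p = 0.557) or PH (0.343). The replicate number as a block on those arrays did not restore the call (0.378 and 0.206). For PC and for the arrays labelled PSC, limma called 0 of 8 CCT genes, and 0 had an unadjusted p under 0.05, with medians of 0.03 and -0.01. Of all genes, 1.22% were called lower and 3.32% higher for PC, and 6.51% and 9.99% for PSC. For dRING the CCT median was 0.10, and the values ran from -0.29 to 0.96.

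The tubulin folding cofactors, which act on tubulin released from the chaperonin, and Vhl, whose human counterpart is a CCT client, were measured through 5 of 7 listed genes. After dKDM2 depletion 3 fell and 1 rose (median -0.60), and after PH depletion likewise 3 and 1 (median -0.72). The shares of all genes called lower and higher were 14.7% and 18.4% for dKDM2, and 15.4% and 19.6% for PH. Tbcb, which binds alpha-tubulin, fell, with a log2 fold change of -1.41 for dKDM2 (2.65-fold, limma adjusted p = 3.90e-05) and -1.86 for PH (3.62-fold, 9.71e-07). Tbce, its partner, fell likewise, with -1.26 for dKDM2 (2.39-fold, limma adjusted p = 0.000566) and -0.80 for PH (1.74-fold, 0.0202), but was not called for PH without PH replicate 2 or 3 (up to 0.180). Tbcd stood at -0.60 for dKDM2 (limma adjusted p = 0.0491) and -0.72 for PH (0.0173), and Tbcc at 0.83 (0.0439) and 0.81 (0.0477).

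Those Tbcd and Tbcc calls rested on single arrays. For dKDM2 that of Tbcd ended without any 1 of 13 arrays (Mock 1 to 5, 8 to 10 and 12 to 14, dKDM2 2 and 3, up to 0.374), and for PH without PH replicate 3 (0.219). That of Tbcc ended for each of these depletions without any 1 of 11 arrays (Mock 3 to 6 and 8 to 12, and replicates 1 and 2 of the depletion, up to 0.231 and 0.344), and it was not made on the deposited values. Against Mock 1 to 3 alone Tbcc was not called for dKDM2 (limma adjusted p = 0.451) or PH (0.449). The replicate number as a block gave 0.0461 and 0.0502 on those arrays. On the arrays labelled PSC, Tbcc rose by 1.20 (limma adjusted p = 0.00869) and Vhl fell (log2 fold change -1.86, 3.64-fold, 0.0229). Neither was called without PSC replicate 1 or 2 (up to 0.114 and 0.144), or against Mock 1 to 3 alone (0.305 and 0.406). With Mock 1 to 3 and the replicate number as a block, Tbcc was called (0.00684) and Vhl was not (0.213). Median centring also left Tbcc not called (0.0562). For PC limma called 0 of 5 (1 with an unadjusted p under 0.05), and the dRING median was 0.49. The shares of all genes called lower and higher were 6.51% and 9.99% for PSC, and 1.22% and 3.32% for PC.

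Genes of the prefoldin-like and R2TP group, a chaperone assembly around the ATPases pont and rept, were all 5 tested. After dKDM2 depletion 2 fell, against 14.7% of all genes called lower. The log2 fold change was -1.84 for rept (3.57-fold, limma adjusted p = 0.00619) and -0.69 for pont (1.61-fold, 0.0208). The former call ended without dKDM2 replicate 2 (0.0638) and the latter without dKDM2 replicate 1 or 2 (up to 0.0998). Against Mock 1 to 3 alone neither was called (limma adjusted p = 0.0508 for rept and 0.0630 for pont). On those arrays with the replicate number as a block both were (0.0157 and 0.00452). After PH depletion 4 fell, against 15.4% of all genes called lower. The log2 fold change was -5.01 for rept, whose mean went from 8.74 to 3.73 (32.2-fold, limma adjusted p = 5.30e-08), -1.93 for spag (3.82-fold, 0.00526) and -1.03 for pont (2.05-fold, 0.000831). The call of spag ended without PH replicate 1 (0.0767). The weakest of the 4 calls (limma adjusted p = 0.0405) ended without any 1 of 7 arrays (up to 0.696), and against Mock 1 to 3 alone (0.476). For PC and the PSC arrays limma called 0 of 5 each, with 0 at an unadjusted p under 0.05 in both, and the medians were 0.39 and -0.19, against 0.47 for dRING. Of all genes, 1.22% were called lower for PC and 6.51% for PSC, and 3.32% and 9.99% higher.

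Of 10 tubulin genes, whose products are clients of prefoldin, 7 were tested. Of these, alphaTub67C (2.79), alphaTub84D (2.35) and betaTub85D (2.29) stood at or near the floor of 2.27 in Mock, so no fall could be seen in them. For dKDM2, gammaTub37C fell by 1.73 (3.33-fold, limma adjusted p = 0.00138) and betaTub60D rose by 1.30 (2.46-fold, 0.0318). For PH, gammaTub37C fell by 1.25 (2.38-fold, 0.0168) and betaTub97EF rose by 0.92 (1.89-fold, 0.0281), and betaTub97EF rose by 1.23 for PC as well (2.34-fold, 0.0273). Each of these 5 calls ended without at least 1 array of its depletion, namely dKDM2 replicate 2 (0.0597) and any 1 dKDM2 array (up to 0.121), PH replicate 1 or 2 (up to 0.215), any 1 PH array (up to 0.116) and any 1 PC array (up to 0.106), in the order given. On the arrays labelled PSC limma called 0 of 7, with 1 at an unadjusted p under 0.05. The shares of all genes called lower and higher were 14.7% and 18.4% for dKDM2, 15.4% and 19.6% for PH, 1.22% and 3.32% for PC, and 6.51% and 9.99% for PSC. For PC and for PSC, 0 tubulin genes were called lower and 1 higher against Mock 1 to 3, and 1 each way on the same arrays with the replicate number as a block. The 3 rises also depended on the scaling. On the deposited values and with median centring the adjusted p was 0.206 and 0.194 for betaTub60D for dKDM2, 0.885 and 0.961 for betaTub97EF for PH, and 0.0558 and 0.0639 for betaTub97EF for PC. Of 6 actin genes, 3 were measured alone (Act79B, Act87E and Act88F), and all of these stood near the floor in Mock (2.31 to 2.35), so a fall in actin transcripts could not be assessed.

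**Figure D4:**
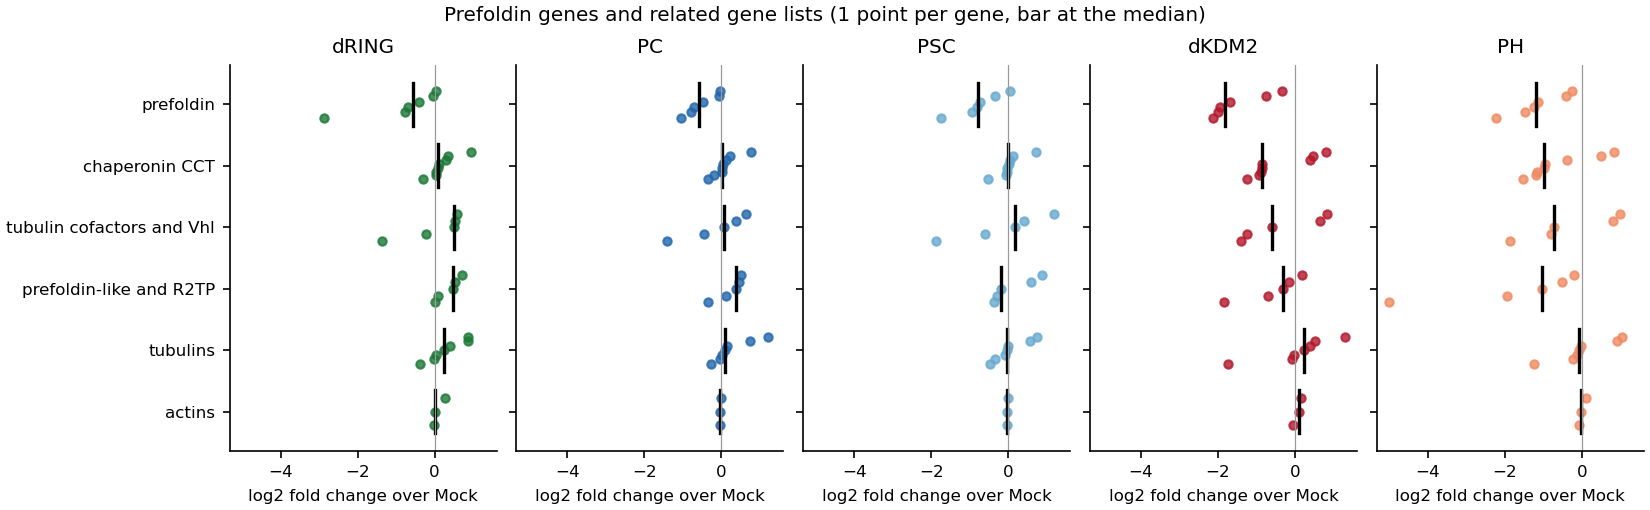
Log2 fold change over Mock (horizontal axis, same scale in all panels) of each tested gene of the prefoldin and related lists, 1 panel per depletion. Points are genes and black bars the list medians. For dKDM2 and PH the prefoldin and CCT medians are -1.82 and -0.85, and -1.18 and -0.98, while for PC and PSC the CCT medians are 0.03 and -0.01.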

How the data were processed

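Drosophila S2 cell RNA was measured on 29 arrays. The deposited values are log2 signals, 1 per probe set and array, and the submitters' processing notes name RMA and GCRMA without version, order or role. The lowest value is 2.27, at which 41.8% of all values lie. Falls that reach it are understated. No genome build is given in the sources used here.

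Of 18952 probe sets, 183 controls were left out of scaling and tests. Probe sets naming 1 gene (13647) were kept, 13544 of them matched by gene number to the Release 6 plus ISO1 MT annotation, which was used for names, chromosome arms and spans alone. The brightest probe set stood for a gene. Genes never above the floor (305, no member among them) were dropped, leaving 11677 to test. Array medians differed by more than 0.1 (2.27 to 2.47), so arrays were quantile normalised. These medians lay at or near the floor, and the upper quartiles of the arrays ran from 5.62 to 7.15. A limma model (version 3.58.1, R 4.3.3) of 6 group means with an intensity trend gave two-sided tests adjusted over all genes. It was tested on simulated data with independent normal noise. That simulation held no likeness between arrays and no floor, so it does not show how the p-values behave under them. The number of arrays limits the precision.

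Members, lists and tests were chosen with earlier results of these data known. Named genes are the members, Sce, Pc and Psc, up to 3 called genes per list and direction with the largest change, and the 5 genes most like Pfdn4. Correlations over Mock arrays used 100000 resamples, two-sided.

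Whether replicate numbers pair the arrays was checked over 5490 genes, from how same-numbered arrays deviated from their group means. Same-numbered arrays of Mock and dRING correlated at 0.728 to 0.840, Mock and PC at 0.698 to 0.800, and Mock and PSC at 0.617 to 0.739, all above the limit of 0.1. The main tests nevertheless took no account of the replicate number, which entered only as a block in an alternative fit. Mock with dKDM2 (-0.11 to 0.0607) and with PH (0.0515 to 0.152) did not pass. Replicates 1 and 2 were closer (r = 0.994 to 0.997 in Mock, dRING, PC and PSC) than 1 and 3 (0.906 to 0.963). Differently numbered arrays were not compared, so the check cannot tell pairing by number from this likeness. Alternatives were other scalings, probe set rules, filters and spread estimates, subsets of Mock, the block, and leaving out each array.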

Additional observations from a re-analysis of the deposited data

How the results depend on the processing

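The 4 calls for dKDM2 and the 4 for PH (Pfdn1, Pfdn4, Pfdn5 and Pfdn6) were made under all alternatives run, each array left out included, and Pfdn2 was called besides on the deposited values (dKDM2), with median centring (both) and with Mock 4 to 14 (both, and PSC and PC as well). Against Mock 1 to 3, and with these arrays and the replicate number as a block, Pfdn2 reversed to 0.402 for dKDM2, 0.444 for PC, 0.743 for PH (limma adjusted p = 0.0226, and 0.0104 with the block) and 0.418 for PSC. The count for PC was 1 (Pfdn4) with the groups compared alone in the fit and 2 (Pfdn2 and Pfdn6) with Mock 4 to 14, and ranged from 0 to 1 when 1 array was left out. The count for PSC was 0 against Mock 1 to 3, 1 with the groups compared alone and 1 with replicates 1 and 2 averaged, and ranged from 1 to 3 when 1 array was left out. The count of calls between depletions was 7, and 14 with the block and Mock 1 to 3, 11 on the deposited values, 14 with median centring, and 4 to 9 when 1 array was left out. Averaging the near-identical Mock arrays left 1 covarying pair of 4. Values near 0 also changed sign. For PC, mgr was 0.0284 with Mock 4 to 14 and ranged from -0.335 to 0.546 when 1 array was left out, and Pfdn5 ranged from -0.108 to 0.0359. For PSC, Pfdn5 was -0.141 on the deposited values, -0.148 with median centring and -0.0492 against Mock 1 to 3 or with the block, and mgr ranged from -0.623 to 0.150 when 1 array was left out. The block fit also leaves out Mock 4 to 14. On Mock 1 to 3 without the block, Pfdn6 for PSC was already not called and Pfdn2 for PH already called, and on these arrays the block took the count for PSC from 0 to 2 and changed no other count against Mock. The cause of these changes was not tested. Median centring moved the median of all genes to -0.144 for PH and -0.0916 for dKDM2. The alternatives with Mock 4 to 14, with averaged arrays, and those of the covariation and of the calls between depletions were chosen after seeing the data. The 3 arrays per depletion and the floor of the signal limit what could be called.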
